A study of Mus musculus with 85 samples.

Results

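The genes described here are 6 genes of mast cells and basophils, Cpa3, Hdc, Gzmb, Cma1, Ms4a2 and Fcer1a, chosen by name out of 18194 genes on the array and measured by 8 probe sets (2 each for Hdc and Ms4a2). They were followed in 85 single cells of mouse embryos, each amplified and hybridised to its own Affymetrix array of 45101 probe sets. They belong to 5 populations isolated by flow sorting. EC (7 cells) and HEC, the hemogenic endothelium (7 cells), came from the caudal part of E10.5 eR1-GFP embryos, in which an enhancer of Runx1 drives GFP. Both were CD31+ and lacked Ter119, CD45 and CD41, and EC were eR1-GFP- while HEC were eR1-GFP+. Hematopoietic cluster cells came from wild type embryos and were c-Kit+, CD31+, CD45+ and SSEA1-, taken either from the caudal part at E10.5 (28 cells) or, at E12.5, out of the aorta-gonad-mesonephros (16 cells). E14.5 fetal liver HSC (27 arrays) were wild type, CD150+, CD48-, c-Kit+, Sca-1+, Lin- and Mac-1+. HSC arrays 20 and 21 were nearly identical (r = 0.99, against 0.86 for the next closest pair in the series) and were averaged, which left 26 HSC and 84 cells.

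Mast cells and basophils are blood cells that store mediators in granules and release them when antigen cross-links IgE on their surface. Cpa3 encodes the granule metalloprotease carboxypeptidase A3, Cma1 the chymase mMCP-5 and Gzmb the serine protease granzyme B, which cytotoxic lymphocytes also make. Hdc encodes histidine decarboxylase, the enzyme that makes histamine. Fcer1a encodes the chain of the high-affinity IgE receptor that binds IgE, and Ms4a2 its signal-amplifying beta chain, and both act with the shared gamma chain Fcer1g. GATA and RUNX proteins are transcription factors of the blood progenitors from which these cells arise.

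The sequences before the gene starts are shown for 4 members, the pair found in both cluster populations (Cpa3 and Hdc) and the pair of serine protease genes found at E12.5 alone (Gzmb and Cma1, both on chromosome 14), because GATA and RUNX genes are among the transcripts compared below. Each is the 250 bases upstream of the start in RefSeq, build GRCm38.p6, on the minus strand, written 5′ to 3′ in the gene's direction. They lie at chr3:20242182-20242431 for Cpa3, chr2:126618679-126618928 for Hdc, chr14:56262335-56262584 for Gzmb and chr14:55944676-55944925 for Cma1. Capitals mark matches to a GATA motif (AGATAA and its variant AGATAG, or TGATAA and its variant TGATAG) or a RUNX motif (TGTGGT), on either strand.
Cpa3: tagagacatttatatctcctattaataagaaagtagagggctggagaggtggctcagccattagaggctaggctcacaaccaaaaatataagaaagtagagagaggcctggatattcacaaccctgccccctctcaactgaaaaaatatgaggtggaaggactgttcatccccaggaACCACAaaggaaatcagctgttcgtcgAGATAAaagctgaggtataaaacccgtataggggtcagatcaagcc
Hdc: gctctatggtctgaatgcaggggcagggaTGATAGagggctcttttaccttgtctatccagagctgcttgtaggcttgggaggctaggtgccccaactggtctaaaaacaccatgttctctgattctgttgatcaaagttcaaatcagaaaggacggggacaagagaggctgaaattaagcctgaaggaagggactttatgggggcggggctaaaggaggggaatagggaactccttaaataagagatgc
Gzmb: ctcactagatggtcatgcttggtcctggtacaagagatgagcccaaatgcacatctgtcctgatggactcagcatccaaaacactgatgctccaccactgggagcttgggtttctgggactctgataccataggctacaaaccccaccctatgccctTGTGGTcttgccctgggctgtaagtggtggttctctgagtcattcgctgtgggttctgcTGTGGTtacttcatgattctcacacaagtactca
Cma1: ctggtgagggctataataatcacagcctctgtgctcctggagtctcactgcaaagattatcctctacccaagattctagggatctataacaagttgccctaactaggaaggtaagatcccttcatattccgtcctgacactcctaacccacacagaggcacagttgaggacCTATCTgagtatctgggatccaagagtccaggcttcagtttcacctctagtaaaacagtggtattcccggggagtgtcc
A GATA match was present for 5 of the 6 members (all but Gzmb), against 26.5% of the 32851 upstream windows in the table, and a RUNX match for 3 of 6 (Cpa3, Gzmb and Fcer1a), against 14%. Cpa3 held both, with the RUNX match at 73 to 68 and the GATA match at 46 to 41 bases before the start. Gzmb held RUNX matches at 93 to 88 and at 34 to 29 bases. Ms4a2 held 3 GATA matches and Fcer1a 1. A motif of MITF, another mast-cell factor (CATGTG), was present for Fcer1a alone, against 12.3% of all windows. None of the matches overlapped another. A match is a run of letters, not a measured binding site.

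The deposited values are log2 expression values after GCRMA, a background correction based on probe sequence. Most lay at the floor near 2, and cells over 5 count as holding a transcript, or as above background. The labels tie no cell to an embryo or litter, so a population is 1 sample, no test between populations was made, and SDs describe cell-to-cell spread only. A difference of means of at least 1 log2 unit is called higher or lower. Probe sets above background averaged 5905 in EC, 7712 in HEC, 9943 in the E10.5 cluster, 7820 in the E12.5 cluster and 6552 in HSC, so fewer transcripts were seen in E12.5 than in E10.5 cluster cells. Genes present in 6 cells went against their sorted identity, and these 6 are given with and without where they bear on a value. EC cell 3 held the germ-cell gene Dppa3 at 14.59, HSC cells 5 and 7 held the sinusoidal gene Lyve1 at 15.05 and 14.73, and in E12.5 cluster cells 3, 6 and 10 C1qb, a complement gene of macrophages, was at 15.69, 15.59 and 15.88.

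Cpa3 marked cluster cells and was at background in all other cells. It was present in none of the 7 EC or 7 HEC, in 11 of 28 cells of the E10.5 cluster and 11 of 16 of the E12.5 cluster, and in 0 of 26 HSC. The highest value in the EC was 2.41, in the HEC 2.35 and in the HSC 2.38, at the floor of the array. With no positive cell, shares of up to 42.9% in either endothelial population and 11.5% in HSC remain possible, by counting error only.

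In E12.5 cluster cells Cpa3 ranged from 2.30 to 14.98 with a median of 11.45, and in E10.5 cluster cells from 2.27 to 12.06 with a median of 2.31. The 11 E12.5 cells with the transcript, in order of cell number, held it at 13.13 (cell 1), 13.37 (cell 2), 11.34 (cell 4), 14.35 (cell 5), 7.16 (cell 7), 13.14 (cell 8), 14.76 (cell 11), 10.97 (cell 12), 14.98 (cell 14), 13.86 (cell 15) and 11.55 (cell 16). The 11 E10.5 cells with it held 8.52 (cell 5), 10.28 (cell 6), 10.51 (cell 8), 7.60 (cell 9), 12.06 (cell 10), 6.39 (cell 11), 6.06 (cell 13), 10.52 (cell 14), 9.78 (cell 15), 8.35 (cell 16) and 9.61 (cell 19). The populations overlapped, but 7 of the E12.5 values lay above every E10.5 value.

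The share of Cpa3 cells was 68.8% at E12.5 (exact 95% interval 41.3 to 89.0%) and 39.3% at E10.5 (21.5 to 59.4%), intervals that cover counting error and overlap. The mean was 9.39 ± 5.25 (SD, 16 cells) at E12.5 and 5.04 ± 3.51 (28 cells) at E10.5. The difference of 4.36 ranked 6th from the top of 10695 measured genes, yet it was smaller than the SD among E12.5 cells. The 3 cells rich in C1qb held no Cpa3: without them it was found in 11 of 13 E12.5 cells, with a mean of 11.02 ± 4.38, and the difference was 5.98. Leaving out any 1 cell of these populations kept it between 3.98 and 4.83.

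**Figure D1:**
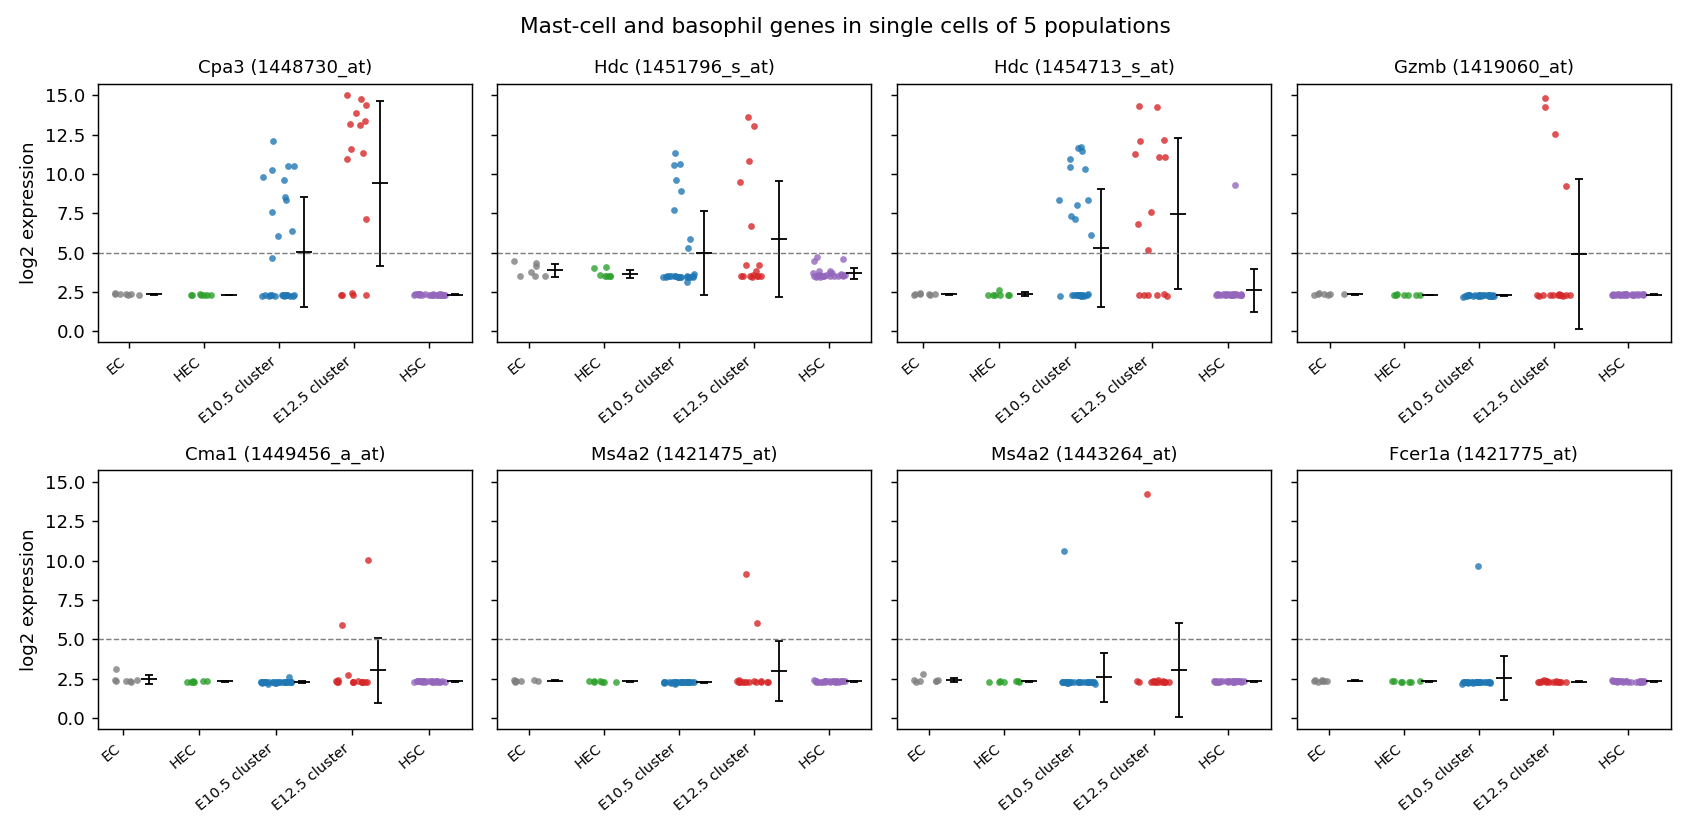
Log2 expression of the 8 probe sets of the 6 genes, with 1 dot per cell for EC (7 cells), HEC (7 cells), cluster cells of E10.5 (28) and of E12.5 (16), and HSC (26); the black bar is the mean with SD over cells and the dashed line is the background limit of 5. Cpa3 and Hdc split the cluster cells into cells with and without signal, Gzmb and Cma1 are present in 4 and 2 E12.5 cluster cells, and the endothelial cells stay below the line throughout.

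Hdc, like Cpa3, was present mainly in cluster cells as deposited. With the probe set 1454713_s_at it was present in no endothelial cell, in 12 of 28 cells of the E10.5 cluster, in 10 of 16 of the E12.5 cluster and in 1 of 26 HSC. That HSC was cell 27, at 9.28, the only HSC in which any of the 6 genes was found. E12.5 cluster cells ranged from 2.28 to 14.30 (median 7.21), and E10.5 cluster cells from 2.27 to 11.73 (median 2.32). The highest E12.5 values were 14.30 in cell 5 and 14.25 in cell 14, and cells 2, 12 and 16 followed at 12.18, 12.06 and 11.28. Of the E10.5 cells, cell 15 held 11.73, cell 14 held 11.61, cell 8 held 11.44 and cell 6 held 10.97. The populations overlapped through most of their range.

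The mean with this probe set was 7.48 ± 4.77 in E12.5 and 5.31 ± 3.76 in E10.5 cluster cells, a difference of 2.18 that was smaller than either SD. The probe set 1451796_s_at represents the gene in the counts below, as the mean of its 5 population means was higher. That came from EC, HEC and HSC, where it averaged 3.89, 3.67 and 3.70, against 2.37, 2.37 and 2.61 for 1454713_s_at. In both cluster populations its mean was the lower of the 2. With it Hdc was found in 5 of 16 E12.5 and 8 of 28 E10.5 cluster cells. The difference was 0.91 (5.88 ± 3.68 and 4.97 ± 2.69). Without the C1qb-rich cells it was found in 5 of 13 E12.5 cells, with a mean of 6.37 ± 3.94, and the difference was 1.40. Its lowest values lay at 3.13 to 3.50 in the 5 populations, above the array floor, and every cell it called was also called by the other probe set. Its counts depended on scale: after quantile normalization it was above 5 in 6 of 7 EC, 2 of 7 HEC, 6 of 28 cells of the E10.5 cluster, 10 of 16 of the E12.5 cluster and 21 of 26 HSC, while Cpa3 stayed at 0 in EC, HEC and HSC. At a limit of 4 it was in 3 of 7 EC, 1 of 7 HEC and 3 of 26 HSC. The probe sets correlated at r = 0.86 over the 28 E10.5 and 0.77 over the 16 E12.5 cluster cells. The suffix of both names marks probes that match several transcripts. The difference of 0.91 was 0.39 without E12.5 cell 5 and 1.14 without E10.5 cell 14, and -0.26 among the cells whose Dap and Phe control probe sets both held the value shared across arrays.

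Gzmb was found at E12.5 alone. It was present in no endothelial cell, in 0 of 28 cells of the E10.5 cluster, in 4 of 16 of the E12.5 cluster and in 0 of 26 HSC. The 4 cells were strongly positive, at 9.25 (cell 1), 12.56 (cell 7), 14.23 (cell 8) and 14.82 (cell 14), while the other 12 E12.5 cells lay at the floor, with a median of 2.31 over all 16. The highest E10.5 value was 2.33, so these 4 cells stood above all E10.5 cells and the rest did not. The share was 25% at E12.5 (exact 95% interval 7.27 to 52.4%), and 0 of 28 cells at E10.5 allows up to 10.7%, so the interval and the limit overlap. The mean was 4.91 ± 4.79 at E12.5 and 2.28 ± 0.03 at E10.5, a difference of 2.63 that was 1.97 without cell 14. Without the C1qb-rich cells it was found in 4 of 13 E12.5 cells, with a mean of 5.51 ± 5.16, and the difference was 3.22.

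Cma1 was present in 2 of the 16 cells of the E12.5 cluster, at 5.93 in cell 8 and 10.01 in cell 14, both of which held Gzmb. It was found in 0 of 28 E10.5 cluster cells (highest value 2.62), in no endothelial cell and in 0 of 26 HSC. Its mean difference between E12.5 and E10.5 was 0.75, and 0.29 without cell 14.

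The chains of the IgE receptor that are particular to it were rare. Ms4a2 was present in 1 of 28 cells of the E10.5 cluster (cell 14, at 10.64 on 1443264_at) and in 2 of 16 of the E12.5 cluster. In E12.5 cell 5 it was at 14.24 on 1443264_at and 6.05 on 1421475_at, and in E12.5 cell 7 at 9.15 on 1421475_at alone, so the probe sets called the same cell once. Fcer1a was found in 1 cell of the series, E10.5 cluster cell 11, at 9.63, and in 0 of 16 E12.5 cluster cells, which allows a share of up to 18.8%. No cell held both chains. The shared gamma chain Fcer1g, which also serves other Fc receptors, was found in 14 of 16 E12.5 and 27 of 28 E10.5 cluster cells, and in 4 of 26 HSC.

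Set side by side, the 6 genes gave these counts by comparison, over all 6 members whether or not they were measured; 3 of them (Cpa3, Hdc and Gzmb) passed the filter of 3 cells above background. Between HEC and EC, 0 of 6 were higher, where 45.9% of measured genes were, and 0 were lower, against 7.36%. No EC or HEC held any of the 6, so both counts compare values below the background limit. They do not set the members apart from other genes. Between E10.5 cluster cells and HEC, 2 of 6 were higher (Cpa3 by 2.71 and Hdc by 1.30), against 43.1% of measured genes, and 0 were lower, against 15.7%. With all 6 at background in HEC, none could be called lower. Between E12.5 and E10.5 cluster cells, 2 of 6 were higher (Cpa3 and Gzmb), where 5.47% of measured genes were, and 0 were lower, against 39.9%. Gzmb, Cma1, Fcer1a and Ms4a2 had E10.5 means of 2.28 to 2.58, too near the floor to be called lower. Hdc, at 0.91, lay just under the size called: it joined the higher genes, making 3 of 6, without the 6 cells against their sorted identity (1.40), with the mean of its probe sets (1.54) and after quantile normalization (2.26). The median over all measured genes was -0.66 in that comparison, opposite in sign to the difference of 5 of the 6 members, with Fcer1a at -0.23.

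Between HSC and E12.5 cluster cells, 3 of 6 were lower, against 36.9% of measured genes, and 0 were higher, against 7.91%. Cpa3 differed by -7.05, the 9th lowest of 10695 genes, Gzmb by -2.57 and Hdc by -2.18. The Hdc value was -4.88 with its other probe set and -0.81 among cells with both controls at the shared value. Between HSC and E10.5 cluster cells, 2 of 6 were lower (Cpa3 by -2.70 and Hdc by -1.27), against 55.5% of measured genes, and 0 were higher, against 5.01%. These comparisons share populations with each other. E12.5 and E10.5 cluster cells differ in stage and in the part of the embryo taken. E10.5 cluster cells and HEC differ in gate and in genotype (wild type against eR1-GFP). HSC differ from cluster cells in gate, tissue and stage. Within each comparison these cannot be told apart. HSC also had the fewest probe sets above background of the 3 blood populations.

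Within cluster cells Cpa3 and Hdc were often found in the same cells. Cpa3 and Hdc, on either of its probe sets, shared 9 of the 16 E12.5 cells, of 11 with Cpa3 and 10 with Hdc. They shared 9 of the 28 E10.5 cells, of 11 with Cpa3 and 12 with Hdc. Their log2 values correlated at r = 0.53 over the 16 E12.5 cells and 0.73 over the 28 E10.5 cells with the representative probe set of Hdc. Cells share an array's depth as well: over the E10.5 cells Cpa3 correlated at r = 0.40 and Hdc at 0.57 with the number of probe sets above background, and over the E12.5 cells at 0.19 and 0.45. The part of depth in the pairing was not tested. The C1qb-rich E12.5 cells 3, 6 and 10 held none of the 6 genes and are included in these E12.5 values. Without them 11 of 13 E12.5 cells held Cpa3, so a gene found in many of them must overlap with it. An overlap beyond that share was not tested.

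**Figure D2:**
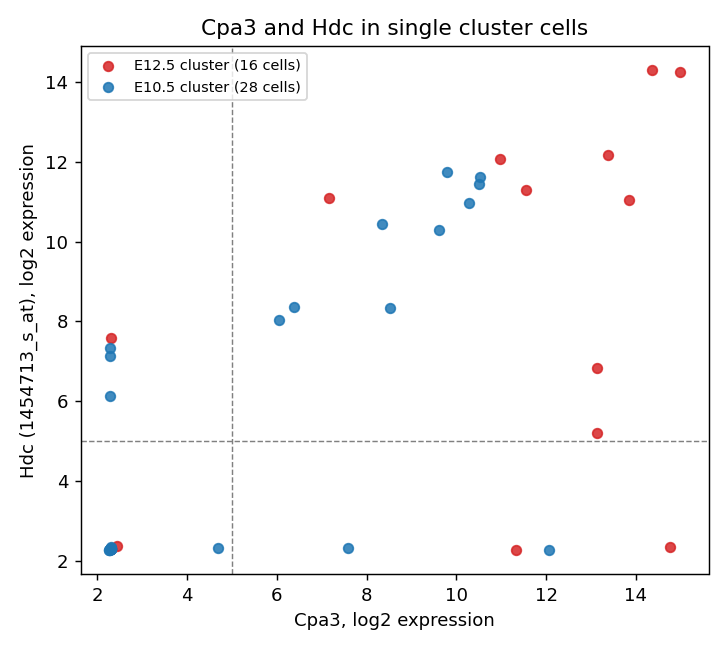
Log2 expression of Cpa3 (x axis) against Hdc, probe set 1454713_s_at (y axis), with 1 dot per cell for 16 E12.5 and 28 E10.5 cluster cells and dashed lines at the background limit of 5. In each population 9 cells lie above both lines, and the E12.5 cells reach 14.98 for Cpa3 and 14.30 for Hdc.

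The rarer genes were found in cells with Cpa3, which most E12.5 cells held: 11 of 16, or 11 of 13 without the C1qb-rich cells. Counts of a few cells cannot be told from that share, and it applies as well to the genes set beside Cpa3 below. All 4 Gzmb cells and both E12.5 Ms4a2 cells held Cpa3, and both Cma1 cells held Gzmb. They also held Hdc on 1454713_s_at, in cell 8 at 5.20, just over the limit. On the representative probe set of Hdc only 1 of the 4 Gzmb cells (cell 14) and 1 of the 2 Ms4a2 cells (cell 5) held it, and Gzmb cells 1, 7 and 8 were at 3.58, 3.55 and 3.52. On that probe set Cpa3 and Hdc shared 5 of the 16 E12.5 and 7 of the 28 E10.5 cells. The counts that follow take Hdc on either. Of the 16 E12.5 cells, 3 held 4 of the 6 genes, 5 held at least 3, 9 at least 2 and 12 at least 1. Of the 28 E10.5 cells, 0 held 4 genes, 2 held 3, 9 at least 2 and 14 at least 1. No cell held more than 4.

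Cells 8 and 14 of the E12.5 population carried the chymase and granzyme genes. Cell 14 held Cpa3 at 14.98, Gzmb at 14.82, Hdc at 14.25 and Cma1 at 10.01, with the mast-cell transcription factor Mitf at 13.06, Gata2 at 14.39, Gata1 at 12.66 and the stem-cell factor receptor Kit at 14.23. Cell 8 held Gzmb at 14.23, Cpa3 at 13.14, Cma1 at 5.93 and Hdc at 5.20, with Mitf at 8.31, Gata2 at 13.56 and Kit at 12.52. Mitf was not limited to these: it was also found in the C1qb-rich E12.5 cells 3 (12.03) and 10 (7.26), which lacked Cpa3, and in 3 E10.5 cells, 1 of them with Cpa3. Both cell 14 and cell 8 lacked the neutrophil granule gene Mpo (2.46 in cell 14 and 2.66 in cell 8). Other genes of the lineage were missing: Gata1 was at background in cell 8 (2.70). Ms4a2 and Fcer1a were at the floor in both, at 2.29 in cell 14 and 2.34 in cell 8. Cd3g, a gene of the cytotoxic list below, was at 13.68 in cell 14 and 5.99 in cell 8.

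Cell 5 of the E12.5 population differed from them. It held Cpa3 at 14.35, Hdc at 14.30 and Ms4a2 at 14.24, with Gzmb at 2.31 and Cma1 at 2.31. It was the only cell of the series with the basophil protease gene Mcpt8 (10.67), and it held Mpo at 14.81. It also held the cytokine genes Il4 (9.29) and Il6 (15.11), which were not particular to it. Il4 was at 10.24 in cell 14, and Il6 at 8.60 in cell 8 and 8.85 in cell 1. Cell 7 held Gzmb at 12.56, Hdc at 11.09 and Ms4a2 at 9.15, and cell 1 held Cpa3 at 13.13 and Gzmb at 9.25 although it had 4137 probe sets above background, the fewest of the E12.5 population. Mitf, Mcpt8, Il4 and Il6 were picked after their values were seen.

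**Figure D3:**
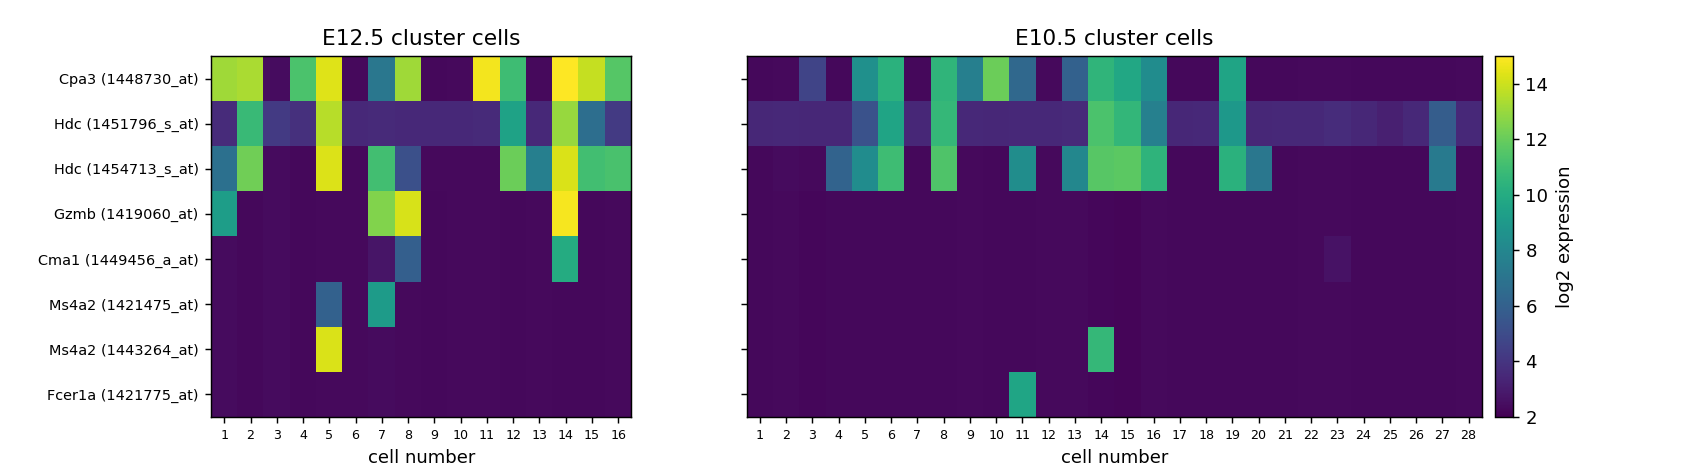
Log2 expression (colour scale from 2 to 15) of the 8 probe sets in each of the 16 E12.5 cluster cells (left) and 28 E10.5 cluster cells (right), by cell number. E12.5 cells 1, 7, 8 and 14 hold Gzmb, cells 8 and 14 Cma1 and cells 5 and 7 Ms4a2, while E10.5 cells hold Cpa3 and Hdc with 1 cell of Ms4a2 and 1 of Fcer1a.

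Other genes of the lineage were set beside the 6. Of 16 further granule genes 13 were on the array by name, and 8 of these were at background in all 84 cells, including the tryptases Tpsb2, Tpsab1 and Tpsg1 and the chymases Mcpt1, Mcpt2 and Mcpt4. The 4 measured ones were Srgn, the proteoglycan core of granules, Ndst2, an enzyme of heparin synthesis, the monoamine transporter Slc18a2 and the protease inhibitor Serpinb1a. Between E12.5 and E10.5 cluster cells 1 was higher (Ndst2 by 1.77) and 1 was lower (Serpinb1a by -1.08), with a median of 0.21, and 2 were higher and 0 lower without the C1qb-rich cells. For this and the following lists the share of all measured genes was 5.47% higher and 39.9% lower between E12.5 and E10.5 cluster cells, 43.1% and 15.7% between E10.5 cluster cells and HEC, and 7.91% and 36.9% between HSC and E12.5 cluster cells. Srgn was found in all 16 E12.5 and all 28 E10.5 cluster cells and all 26 HSC, so it did not follow Cpa3. Between E10.5 cluster cells and HEC all 4 were higher (median 4.07, Srgn by 8.80).

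Receptors and signalling genes that act with the IgE receptor varied widely in how many cells held them. Of 17 on the array, 2 (Mrgprb1 and Rgs13) were at background in every cell. Of the 15 measured, 10 were higher and 2 lower in E10.5 cluster cells than in HEC (median 2.38), 1 was higher and 4 were lower in E12.5 than in E10.5 cluster cells (median 0.16, or 3 higher and 2 lower without the C1qb-rich cells), and 1 was higher and 10 were lower in HSC than in E12.5 cluster cells (median -1.23). Fcer1g was higher by 7.95 in E10.5 cluster cells than in HEC and differed by -7.33 in HSC from E12.5 cluster cells. The cytokine receptor chain Csf2rb (6.12 and -3.20) and the kinase Syk, which acts directly below Fcer1g (4.59 and -3.0), were likewise higher and then lower, whereas the values for Kit were 5.33 and 0.79.

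Of 12 measured transcription factors of the lineage, 8 were higher and 1 lower in E10.5 cluster cells than in HEC (median 2.09), 2 were higher and 5 lower in E12.5 than in E10.5 cluster cells (median -0.51, with a share of lower genes near the 39.9% of all measured genes; 1 higher and 6 lower without the C1qb-rich cells), and 2 were higher and 7 lower in HSC than in E12.5 cluster cells (median -1.40). Gata2 was higher by 1.75 at E12.5, and every Cpa3 cell held it: 11 of 11 at each stage, among 14 of 16 E12.5 and 24 of 28 E10.5 cells with Gata2. Gata1 was found in 6 of 16 E12.5 cells, all of them with Cpa3, and in 10 of 28 E10.5 cells, 9 of them with Cpa3, and in 0 of 26 HSC. Cebpa, a myeloid factor, was found in 7 of 16 E12.5 cells, 4 of them with Cpa3, and in 12 of 28 E10.5 cells, 6 of them with Cpa3. Runx1 was found in 7 of 16 and 20 of 28 cells, of which 5 and 8 held Cpa3.

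Of 7 measured mediator genes, 3 were higher and 0 lower in E12.5 than in E10.5 cluster cells (median 0.57), and 6 were lower in HSC than in E12.5 cluster cells (median -1.39). The 3 were Hpgds, Il6 and Tnf, and Hpgds, picked after its values were seen, was found only in the C1qb-rich cells 3, 6 and 10, without which 2 of the 7 were higher and the median was -0.00294. Hpgds and Il6 were found in no population but the E12.5 cluster. They met the filter of 3 cells through it alone, so they could not come out lower at E12.5 or higher in HSC. Il6 was found in E12.5 cells 1, 5 and 8, each with Cpa3, and Il4 in cells 5 and 14. Alox5, the enzyme that starts leukotriene synthesis, was found in 9 of 16 E12.5 cells, all with Cpa3, and in 23 of 28 E10.5 cells, among them all 11 with Cpa3.

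**Figure D4:**
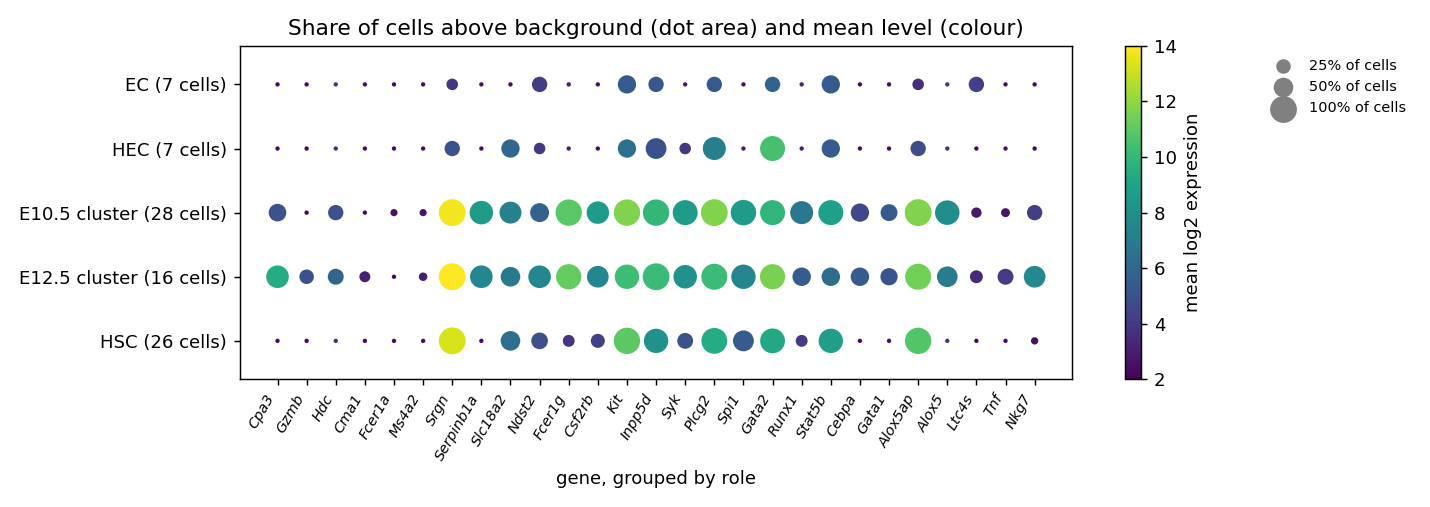
Share of cells above background (dot area) and mean log2 expression (colour) of the 6 genes and of granule, receptor, transcription factor, mediator and cytotoxic genes (x axis) in the 5 populations (y axis). Cpa3, Gzmb and Nkg7 have their largest dots in E12.5 cluster cells, whereas Srgn, Kit, Gata2 and Alox5ap are also present in HSC.

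Granzyme B is also a product of cytotoxic lymphocytes, so their genes were looked at in the same cells. Of 18 on the array, 12 were at background in all 84 cells, among them Prf1, which encodes perforin, Gzma, Ncr1, Ifng and Cd3d. The per-cell mean over the 18 genes ranged from 2.31 to 3.55 in E12.5 cluster cells and from 2.19 to 3.56 in E10.5 cluster cells. Nkg7, a granule membrane gene of cytotoxic cells, was found in 10 of 16 E12.5 cells, all with Cpa3, and in 8 of 28 E10.5 cells, 7 of them with Cpa3. Cd3g was found in E12.5 cells 1, 8 and 14, at 10.32, 5.99 and 13.68, which are 3 of the 4 Gzmb cells; it was picked after its values were seen. Of 9 other metallocarboxypeptidase genes on the array, 3 were at background in every cell, and Cpd and Cpe differed by -4.26 and -3.45 in E10.5 cluster cells from HEC, opposite in sign to Cpa3. Cpe was found in 3 of 7 EC and 3 of 7 HEC and in no other cell. Of 6 eosinophil genes on the array, 4 were at background in every cell, and Siglecf was found in 9 of 16 E12.5 cells, 8 of them with Cpa3, and 15 of 28 E10.5 cells, 10 of them with Cpa3.

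Genes with a pattern most like Cpa3 were ranked by Pearson correlation of log2 values over all 84 cells among 8840 genes found in at least 10 cells. They were Nkg7 (r = 0.80), Cst7, which encodes the protease inhibitor cystatin F (0.73), the solute carrier gene Slc45a3 (0.73), Lpcat2, which makes platelet-activating factor (0.71), and the glypican gene Gpc4 (0.68). Slc45a3 was found in 8 of 16 E12.5 cells and 6 of 28 E10.5 cells, and every one of these held Cpa3. That overlap is not separate from the ranking, which chose Slc45a3 by its correlation with Cpa3 in these cells. For Hdc the nearest were Cpa3 (0.67), Gata1 (0.64), Rab44 (0.61), Cst7 (0.61) and Ecsit (0.57). These values mix differences between populations with differences within them, and the cells share depth.

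Over the 28 E10.5 cluster cells alone the nearest to Cpa3 were Bin1 (0.80), Gata1 (0.79), Smim5 (0.78), Muc13 (0.78) and Tmem9 (0.77). For Hdc they were Hpn (0.84), Zfp963 (0.76), Fbxo17 (0.76), Ppox (0.74) and Cpa3 (0.73). Of all 10695 measured genes, 4 were found in at least 11 E12.5 cluster cells and in no HSC and no endothelial cell: Cpa3, the Fc receptor gene Fcgr3, the oxidase subunit gene Ncf1 and Serpinb1a. Their E12.5 minus E10.5 differences were 4.36 for Cpa3, 1.90 for Fcgr3, 0.68 for Ncf1 and -1.08 for Serpinb1a. That rule was set after the Cpa3 values were seen.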

How the data were processed

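Single-cell gene expression was measured on 1 Affymetrix array per cell. The deposited log2 expression values were made by the authors with affy and GCRMA, as the authors' tools are listed per the submitters' processing notes; versions are not given in the sources used here. They were used as deposited. Of 45101 probe sets, 34958 had 1 gene symbol in the platform's annotation and were used, 932 had several and 9211 had none listed. Where a gene had several, the brightest one (by the mean of the 5 population means) stands for it, and each probe set of the members is also reported. A value over 5 counts as above background, and 17.6% of values were. Genes above background in at least 3 cells (10695 of 18194) count as measured. Arrays correlating above 0.95 were averaged. Samples are single cells that the labels tie to no embryo, so no test between populations was made; the number of arrays limits precision. Shares have exact Clopper-Pearson 95% intervals, and a count of 0 is given the share that 3 cells would make; both cover counting error only. Named genes of the further lists (granule, receptor, transcription factor, mediator, cytotoxic, carboxypeptidase, eosinophil, neutrophil, macrophage, erythroid, megakaryocyte and endothelial) were those present in 25% or more of a population's cells, up to 6 a list with the largest differences first, and genes at background throughout; other names are said to be picked later. The 5 genes most like a member were ranked by Pearson correlation, for members found in at least 10 cells. The members and lists were chosen with earlier results of these data known. The difference of means was checked on shuffled values with a known shift added. That check does not cover the background limit, the cell counts or the choice of probe set. Promoter windows, matched by symbol for 6 of 6 members, are from RefSeq (GRCm38.p6). Python 3.11.15, pandas 2.3.3, numpy 2.4.6, scipy 1.17.1 and matplotlib 3.10.9 were used.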

Additional observations from a re-analysis of the deposited data

Results flagged for a closer look

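Of the 12 sets of 7 endothelial values (6 genes in EC and in HEC), 2 held a cell far from the others by Dixon's test, where chance gives about 1 in 20; the sets are not independent, since several hold the same floor values. Cma1 was at 3.14 in EC cell 7, against 2.41 in the next highest EC. Ms4a2 was at 2.77 in EC cell 4, against 2.42 in the next highest. Both values lie below the background limit of 5.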

How the results depend on the processing

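No paired analysis was possible because each numbered sample is a single cell and the results come from no test. The counts of members called in the 5 comparisons kept within 1.5 times under 89 alternative values and moved further under 11. Counts of 0 that stayed at 0 are among the 89, as are counts of 2 that became 3. The 89 are therefore no measure of how stable the counts above 0 were. With cells shifted to an equal median, 6 members were lower in HEC than in EC, and all measured genes moved too, to a median of -0.15, against 0.82 as deposited. As deposited, all 6 were below the background limit in every EC and HEC, so the shift moved values without signal. After quantile normalization 1 was lower in HEC than in EC, 1 was higher in E10.5 cluster cells than in HEC, and between HSC and E10.5 cluster cells 1 was higher and 1 lower. Hdc was then reversed, at -0.53 between E10.5 cluster cells and HEC and 1.64 between HSC and E10.5 cluster cells; the cause was not tested. With the median over cells, which falls at background where under 50% of cells hold a gene, the counts were 0 higher in E10.5 cluster cells than in HEC, 1 higher in E12.5 than in E10.5 cluster cells, 1 lower in HSC than in E12.5 and 0 lower in HSC than in E10.5 cluster cells. Cpa3 was then at -0.0157 between E10.5 cluster cells and HEC and 0.0287 between HSC and E10.5 cluster cells, Hdc at -0.0513 and 0.0599, and Gzmb at 0.0303 between HSC and E12.5 cluster cells. At a size of 2 log2 units, 1 member was higher in E10.5 cluster cells than in HEC and 1 lower in HSC than in E10.5 cluster cells. The shares of all measured genes called were not computed under any of these settings, and the deposited shares do not carry over. These counts therefore do not set the members apart from other genes. Leaving out 1 cell at a time gave 2 to 3 members higher in E12.5 than in E10.5 cluster cells and changed no other count. Lists without the 6 cells against their sorted identity, and Hdc by probe set, were added after the data were seen. On its representative probe set, 1443264_at, Ms4a2 was in 0 of the 11 E12.5 cells with both controls at the shared value. The other probe set was not counted in that setting.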

Other observations

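Genes of other blood lineages were present in the cells that held Cpa3. The erythroid transcription factor gene Klf1 was present in 4 of 16 cells of the E12.5 cluster, all with Cpa3, and in 7 of 28 of the E10.5 cluster, 6 of them with Cpa3. Mpo was found in 7 of 16 E12.5 cells, all with Cpa3, and in 27 of 28 E10.5 cells, among them all 11 with Cpa3. Between E12.5 and E10.5 cluster cells 0 of 3 measured erythroid genes were higher and 2 lower (median -1.12), 1 of 6 neutrophil genes was higher and 3 lower (median -1.25, Mpo at -4.66), 1 of 8 megakaryocyte genes was higher and 3 lower (median -0.55), 0 of 10 endothelial genes were higher and 4 lower (median -0.65), and 6 of 8 macrophage genes were higher and 0 lower (median 1.97). Over all measured genes 5.47% were higher and 39.9% lower, so the endothelial and megakaryocyte shares lower are near that of all genes. Without E12.5 cells 3, 6 and 10, 0 of 8 macrophage genes were higher and 1 lower (median -0.05), and 1 of 3 erythroid genes was lower (median -0.12). The single measured eosinophil gene, Siglecf, differed by 0.17 and the 3 measured metallocarboxypeptidases had a median of 0.05, with Cpd at -2.22. Of 4 measured cytotoxic genes 2 were higher (3 without those cells), Nkg7 by 3.40 and Cd3g by 1.5. Cd3g was found in 3 cells, all of the E12.5 cluster. It met the filter of 3 cells through them alone and so could not come out lower. E12.5 cell 4 held C1qb at 10.07 beside Cpa3 at 11.34.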
